A study of Oryza sativa with 2 samples.

Results

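WD40 proteins are built from repeats that fold into a ring of blades, a propeller, on which other proteins assemble. They work as the fixed subunit of many complexes, among them G proteins at the plasma membrane, ubiquitin ligases, chromatin complexes and the growth kinase TOR. Rice WD40 genes have been numbered as OsWD40 followed by a hyphen and digits, and probe sets were taken as members when they mapped to 1 annotated gene that carries such a name. The annotation holds this name for 2 genes, each read by 1 probe set, out of 17905 genes read by 22436 probe sets with 1 annotated gene. The members are OsWD40-80 (RGB1, LOC4333680, accession AU030384) and OsWD40-81 (LST8, LOC4333729, accession AK111767). They are a small fraction of the WD40 genes of rice, and other WD40 genes on the array go by other names.

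RGB1 encodes the beta subunit of the heterotrimeric G protein, the propeller that binds the gamma subunit and holds the alpha subunit RGA1 until a signal releases it. In rice, suppression of RGB1 is known to dwarf the plant and to brown the internodes and the lamina joint, the region that the collar covers, and loss of RGA1 gives the dwarf d1, which responds weakly to brassinosteroids. LST8 is a subunit of the TOR kinase complex, which couples nutrients to growth and holds autophagy in check. In Arabidopsis, LST8 is required for normal growth, and TOR sustains the brassinosteroid factor BZR1.

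Developing collars at the heading stage came from wild type rice and from line 2 of AntiOsLIC plants, in which the full-length OsLIC cDNA is driven in antisense orientation by the maize ubiquitin promoter, and the plants of both groups shared a field. Each array took RNA pooled from 30 collars, each from a different plant, and each condition has 1 array, so there is no spread between samples, no significance test was possible, and no difference has a replicate check. OsLIC, the targeted gene, read 219.8 on the array labelled wild type but 2069 on that labelled antisense OsLIC, a log2 ratio of 3.23. The authors reported suppressed OsLIC protein in the antisense lines, by immunoblot of young stems, while this value is of collar RNA. A higher signal under the antisense label is the opposite of a lowered transcript. Whether the probes of OsLIC read the endogenous transcript or the antisense transgene was not tested. Nor was it tested whether the labels of the arrays are exchanged, which would turn the sign of every log2 ratio given here, so arrays are named by their labels throughout.

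The signals were scaled by the authors to the same overall intensity on each array, with medians of 67.2 and 69.7 over 57194 non-control probe sets. The collar gene LG1, which is needed to form the lamina joint, had signals of 493.5 and 641.3 under the labels wild type and antisense, the order kept below, and BU1, a bending factor of this tissue, had 463.3 and 450.3. Of 9 floral MADS-box markers, 8 stayed under a signal of 100 on both arrays, and MADS16 reached 1179. The green leaf gene CAB2R, for a chlorophyll-binding protein, had signals of 25685 and 12844 by its brighter probe set and a log2 ratio of -1.23 by the other, while the small Rubisco subunit gene RBCS had log2 ratios from -0.39 to 0.79 over the 3 of its 4 probe sets past a signal of 100. The part of leaf tissue in the values below was not tested.

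The G protein beta gene RGB1 read 3722 on the array labelled wild type against 3694 on that labelled antisense OsLIC. The level of this probe set was thus nearly equal on the arrays, with a difference of -27.99 signal units (antisense label minus wild type label). Its signal was above 95.6% of all non-control probe sets under the wild type label, and above 95.5% of them under the other. The log2 ratio, antisense label over wild type label, was -0.01, and centring the ratios on their median turned its sign (0.00 after rounding), so that no direction is given. Of the 26697 probe sets with at least 100 on their brighter array, called past the minimum here, 2.25% had a log2 ratio nearer to 0. The probe set carries the suffix _s_at, which marks probes shared by several transcripts, and the value may therefore include related RNA.

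The TOR complex gene LST8 read 1254 on the array labelled wild type against 1131 on that labelled antisense OsLIC. These signals were above 86.0% and 84.8% of all non-control probe sets. The log2 ratio was -0.15, a signal 1.11-fold lower under the antisense label, and 29.9% of the probe sets past the minimum had a log2 ratio nearer to 0. Its probe set has no suffix of a less specific kind.

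**Figure D1:**
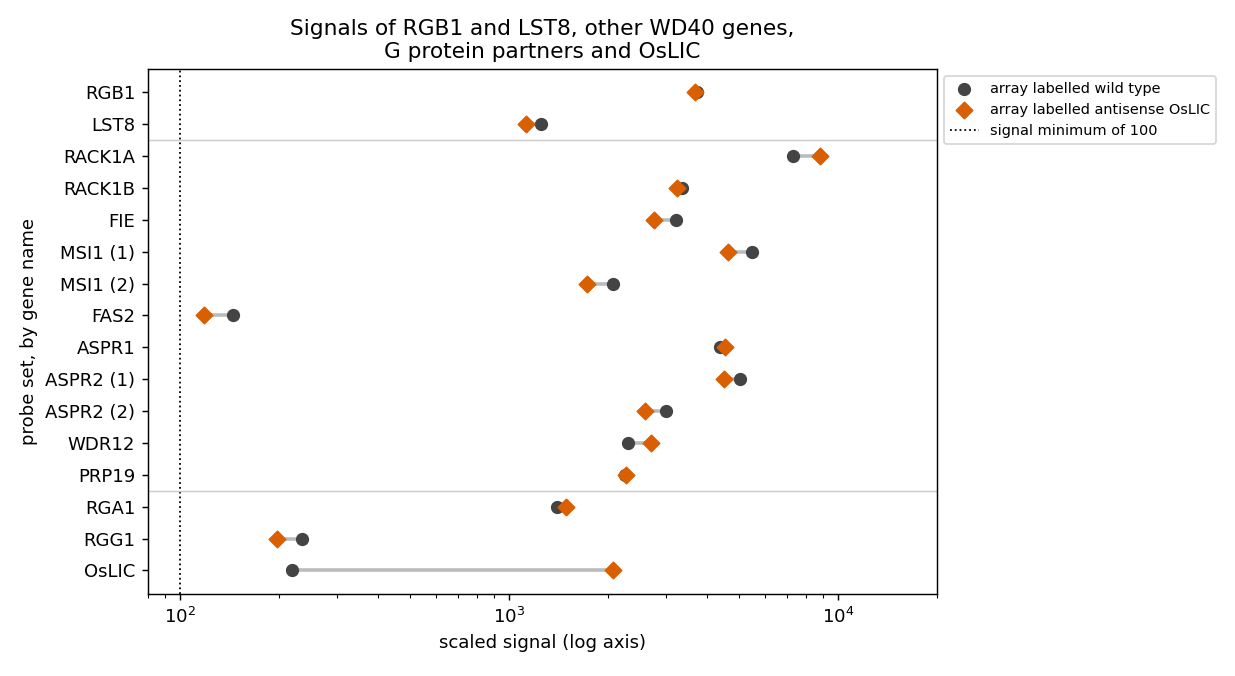
Scaled signal (log axis) of each probe set under the label wild type (circles) and the label antisense OsLIC (diamonds), for RGB1 and LST8 at the top, 9 other WD40 genes in the middle, and the G protein partners RGA1 and RGG1 with OsLIC at the bottom. Numbers in brackets separate probe sets of 1 gene, and the line between symbols is long for OsLIC (219.8 and 2069) and short for RGB1 (3722 and 3694).

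The members lay well above the middle of the array, at 3722 and 1254 under the wild type label, where the upper quartile of all non-control probe sets was 508.4. They were 1.57 apart on the log2 scale under the wild type label and 1.71 apart under the antisense label, while all probe sets, with signals under 20 set to 20, covered 11.5 and 11.6. Signals of different probe sets depend on their probes, so this distance is one of signals and gives no order of transcript amounts. Neither member was past a 2-fold difference in either direction (0 of 2), where 5.28% of all probe sets past the minimum were higher by 2-fold or more under the antisense label and 4.64% were lower by as much. With 2 members this count says little about the family. The median log2 ratio of the members was -0.08, beside -0.01 over all probe sets past the minimum, whose quartiles were -0.28 and 0.27. The log2 ratio of RGB1 exceeded that of LST8 by 0.14, a difference for which the arrays give no error.

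**Figure D2:**
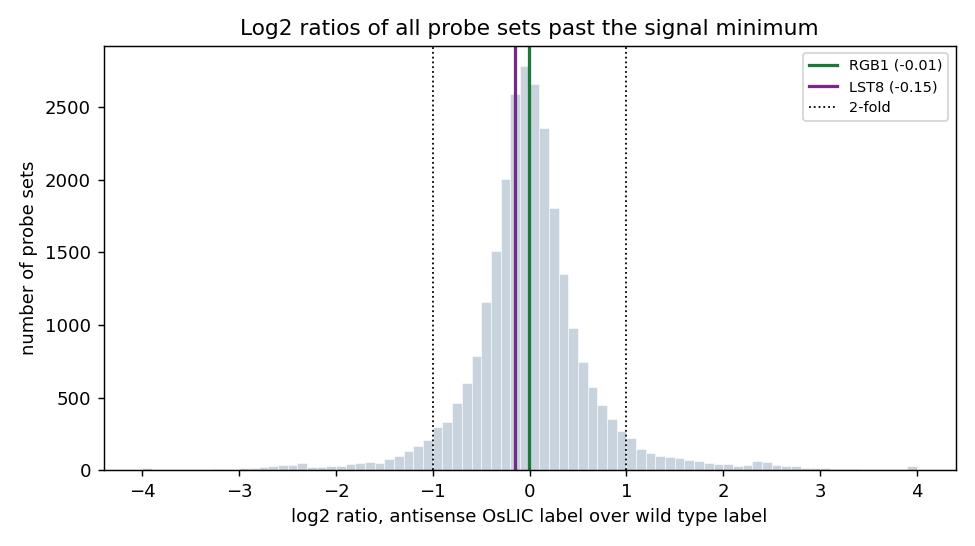
Number of probe sets by log2 ratio (antisense OsLIC label over wild type label) for the 26697 probe sets past the signal minimum of 100, with ratios beyond 4 on either side placed in the end bins. The lines of RGB1 (-0.01) and LST8 (-0.15) stand in the central peak, inside the dotted 2-fold limits.

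The other subunits of the G protein were compared on the same arrays, since beta and gamma form a lasting pair and alpha joins them at rest. RGA1, the alpha subunit, read 1404 and 1494 in the same order of labels (log2 ratio 0.09). RGG1, a gamma subunit, had signals of 235.1 and 197.7 (log2 ratio -0.25), near the dim end of the values described here. Neither was past 2-fold, where 5.28% of all probe sets past the minimum were higher by 2-fold or more and 4.64% were lower. With RGB1, the log2 ratios of the alpha, beta and gamma genes ranged from -0.25 to 0.09. RGG2, GS3 and DEP1, names of other gamma subunits, were not matched to a probe set.

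RACK1A and RACK1B encode the propeller proteins nearest in kind to a G protein beta subunit, and they sit on the ribosome as scaffolds of signalling. RACK1A had signals of 7315 and 8822 (log2 ratio 0.27). RACK1B had signals of 3357 and 3244 (log2 ratio -0.05). Neither gene was past 2-fold, beside the same 5.28% and 4.64% of all probe sets past the minimum.

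Genes of autophagy, the process that TOR holds in check, stood beside LST8 as follows, and their RNA gives no reading of TOR activity. ATG8C and ATG8B, of the small proteins that coat the autophagosome, were among the brightest genes described. ATG8C had signals of 13132 and 10753 (log2 ratio -0.29), and ATG8B had signals of 7525 and 5372 (log2 ratio -0.49). ATG5, part of the enzyme that attaches ATG8 to lipid, had signals of 418.9 and 556.4 (log2 ratio 0.41). ATG8D stayed under the minimum on both arrays, with dim signals of 19.0 and 57.0. Its log2 ratio was 1.51, with the signal under the wild type label raised to the signal floor. None of the 3 autophagy genes past the minimum was past 2-fold, beside the same 5.28% and 4.64% of all probe sets past the minimum. With 3 genes this count says little. The log2 ratios of these 3 genes did not share a sign.

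A list of WD40 proteins under other names, drawn up by role, placed 9 of 37 symbols on the array, with 11 probe sets. All 11 were past the minimum, and none was 2-fold higher or lower (0 of 11, against the 5.28% and 4.64% above). Those shares include many dim probe sets, while most of the 11 were bright, so the comparison is not matched for signal. Their log2 ratios ran from -0.30 to 0.27 with a median of -0.16, 4 above 0 and 7 below. The 7 below include 2 probe sets each of MSI1 and ASPR2, so they are not 7 genes. Over all probe sets past the minimum, 12954 were above 0 and 13743 below. The values of RGB1 and LST8 thus lay within the range of the listed WD40 genes.

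Among the chromatin members of that list, FIE, a core subunit of the Polycomb complex that methylates histones, had signals of 3227 and 2758 (log2 ratio -0.23). MSI1, a histone-binding subunit shared by Polycomb and the chromatin assembly factor, had log2 ratios of -0.24 and -0.26 by its 2 probe sets. FAS2, of the same assembly factor, was the dimmest of the list, with signals of 145.4 and 118.2 (log2 ratio -0.30). All 4 chromatin probe sets, 2 of them of MSI1, were on the lower side under the antisense label, by at most 1.23-fold. No replicate spread is known for a difference of this size. Of the 26697 probe sets past the minimum, 13743 were on the lower side too. EZ1, the methyltransferase that works with FIE, had a log2 ratio of 0.18.

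ASPR1 and ASPR2, of the TOPLESS-related corepressors that recruit silencing to transcription factors, had log2 ratios of 0.05 for ASPR1 and of -0.16 and -0.21 for the 2 probe sets of ASPR2. WDR12, which in yeast takes part in making the large ribosomal subunit, had signals of 2298 and 2713 (log2 ratio 0.24). PRP19, a ubiquitin ligase of the spliceosome, had signals of 2263 and 2270 (log2 ratio 0.00). The 2 probe sets of MSI1, and likewise those of ASPR2, had the same sign and lay within 0.1 of each other on the log2 scale.

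**Figure D3:**
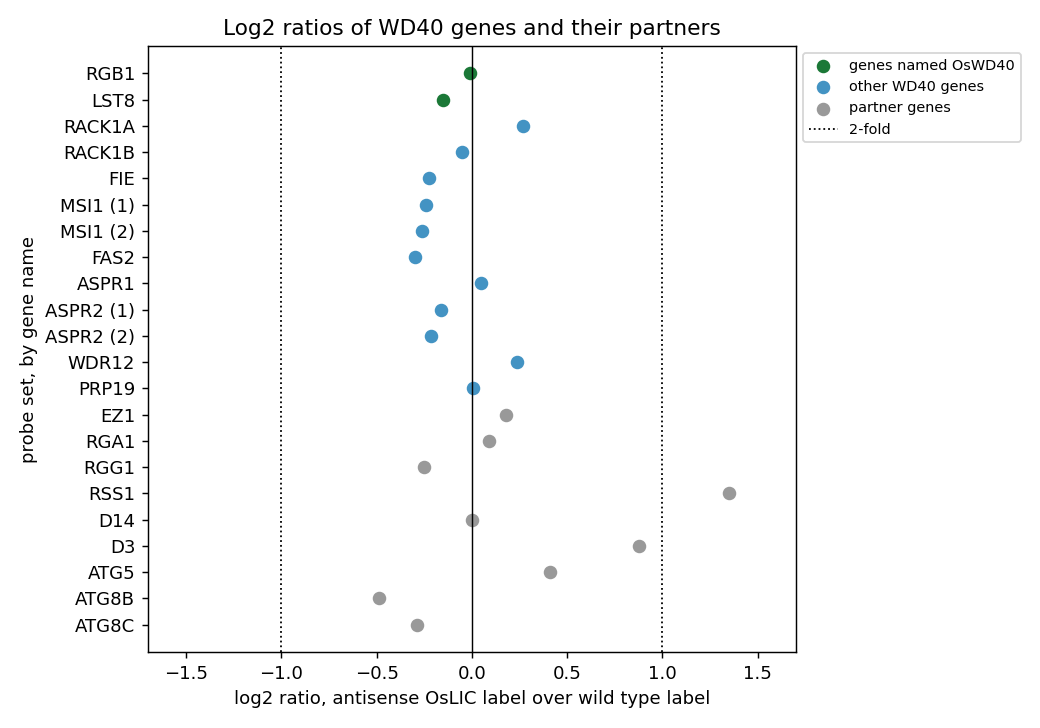
Log2 ratio (antisense OsLIC label over wild type label) of each probe set past the signal minimum for RGB1 and LST8, for 9 other WD40 genes and for 9 partner genes, with dotted lines at 2-fold. The point of RSS1 (1.35) lies beyond the 2-fold line, while the WD40 genes lie between -0.30 and 0.27.

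The partner list held 40 symbols from complexes and pathways in which WD40 proteins take part, and direct contact with a WD40 protein is not implied. Of these symbols, 10 were matched. Some shared a gene and ATG8 stood for several, which gave 10 genes, 9 of them past the minimum. Of the 9, 1 was past 2-fold on the higher side under the antisense label and 0 on the lower side, where 5.28% and 4.64% of all probe sets past the minimum were. That gene was RSS1, a cell cycle regulator listed under the anaphase-promoting complex, with signals of 48.5 and 123.7 (log2 ratio 1.35). The signal of RSS1 was dim on both arrays, and its log2 ratio was 0.82, under 2-fold, when a pseudocount of 50 was added in place of the floor. Of 4 probe sets of dividing-cell markers, 3 were past the minimum: a cyclin B1 gene (CYCB1-1, LOC4327547) had signals of 48.5 and 108.8 (log2 ratio 1.17), the mitotic kinase gene CDKB2-1 had 108.4 and 187.9 (0.79), and the replication clamp gene PCNA had 1315 and 1204 (-0.13). The fourth, of another cyclin B1 gene, had signals of 43.1 and 16.7, and the part of dividing cells in the value of RSS1 was not tested. In the strigolactone pathway, which acts through TOPLESS corepressors, the receptor gene D14 had signals of 7711 and 7724 (log2 ratio 0.00), and the F-box gene D3 had dim signals of 64.0 and 117.5 (log2 ratio 0.88, and 0.55 with the pseudocount). The median log2 ratio of the 9 partner genes was 0.09.

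RGB1 and LST8 lie on the same rice chromosome, and the RefSeq annotation of assembly ASM3414082v1 places 74 genes between them, 52 of them protein-coding. Probe sets of 19 of these genes were past the signal minimum, 25 probe sets in all. Of the 25, 2 were past 2-fold on the higher side and 0 on the lower side, beside the same 5.28% and 4.64%. Of these 2, LOC4333706 had dim signals of 53.2 and 140.1 by a less specific probe set (suffix _x_at). The other, LOC4333712, had signals of 697.7 and 2132. The median log2 ratio of the 25 was 0.00, beside the -0.01 of all probe sets past the minimum.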

How the data were processed

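RNA of developing rice collars was measured on Affymetrix GeneChip rice arrays, 1 for each condition. The authors computed 1 linear signal intensity per probe set with GCOS (version not given in the sources used here) with the overall intensity of an array scaled to 500. The trimmed mean (2% off each end) of the deposited signals is 500.1 on both arrays. This scaling fixes the overall level, so a shift of all transcripts could not be seen. The 187 control and reporter probe sets of 57381 were left out.

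A floor of 20 was put under the signals, log2 ratios (antisense label over wild type label) were computed from the scaled values with nothing else done to them, and probe sets under 100 on both arrays were set aside. The threshold was 2-fold. The number of arrays limits the precision.

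Members were found through the gene ID of each probe set in RefSeq's symbols and synonyms (39387 genes, 3391 with a synonym). Members and lists were chosen with earlier results of these data known. Lists of partner genes, tissue markers and WD40 roles were matched by symbol, with or without the prefix Os. The 37 WD40 symbols were spelled out from the roles after the members' values had been seen. A sucrose synthase that shares the name RSS1 was left out, as were AIP1, HIRL1 and eIF3k, whose names fit the roles but not the protein family. The planned rule named every member past the minimum, up to 3 genes per role, and partner genes past 2-fold with up to 2 others per list. Further genes, and those between the members, were chosen after values were seen.

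Alternatives were median centring, quantile normalization, loess (fraction 0.4), a pseudocount of 50, other signal minima, a threshold of 3-fold, 1 probe set per gene, and leaving out the less specific probe sets marked _x_at or _s_at. The code (Python 3.11.15, statsmodels 0.14.6) was tested on simulated data.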

Additional observations from a re-analysis of the deposited data

How the results depend on the processing

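Under median centring, quantile normalization, loess and the pseudocount, the counts of members past 2-fold were 0 higher and 0 lower. For signals above the floor, the pseudocount only draws a log2 ratio towards 0. Median centring shifted all ratios by the median of -0.01 over the probe sets past the minimum. Neither of these could raise a count of 0, so neither speaks for its stability. Quantile normalization and loess gave log2 ratios of -0.02 and -0.01 for RGB1 and of -0.14 and -0.13 for LST8. These lie far from the 2-fold threshold, so the count of 0 under them says little of stability either. The other minima, the 3-fold threshold, 1 probe set per gene and fewer probe sets could not raise a count of 0 for members this bright, and say nothing of its stability. The median log2 ratio of the members stayed between -0.15 and -0.07. The value of -0.15 came from leaving out the less specific probe sets marked _x_at or _s_at, which leaves LST8 alone and gives no distance between members. The log2 ratio of LST8 ranged from -0.14 to -0.13 and that of RGB1 from -0.02 to 0.00 over median centring, quantile normalization, loess and the pseudocount. The distance between the members' mean log2 signals was 1.64, and 1.60 with the pseudocount. Over all probe sets, the pseudocount lowered the counts past 2-fold from 1409 higher and 1238 lower to 861 and 700. The signals of RGB1 and LST8 were far above the floor, those of RSS1 and D3 were not. No paired analysis was possible because each condition has 1 array. No array could be left out either.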
